A study of Arabidopsis thaliana with 7 samples.

Results

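AT1G72900, AT1G72920 and AT1G72940 are neighbouring TIR-domain genes of Arabidopsis thaliana, and their transcript levels are described here in seedlings with altered SOC1 activity. They were chosen by name as the 3 members of their cluster that stood high in a mutant lacking SOC1 function, and each is read by 1 probe set, so 3 of the 22746 probe sets on the array are concerned. Biotin-labelled total RNA of whole seedlings was hybridised to 7 one-colour arrays. Growth was for 7 days at 21 °C, with 16 h of light and 8 h of darkness a day. Col, the wild type at a vegetative stage, had 3 arrays. The mutant soc1-101D, an early flowering line with a gain of SOC1 function on the Col background, also had 3. The late flowering knock-out mutant soc1-2, on the Col background too, had 1. The labels number the experiments 1, 2 and 3, with a Col and a soc1-101D array in each and the soc1-2 array in experiment 3. They do not say how each allele was made, how many plants made up a sample, or whether an experiment was a separate planting.

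TIR domains are found in a large class of plant intracellular immune receptors, where they usually stand before a nucleotide-binding domain and leucine-rich repeats. Arabidopsis also has shorter genes that encode the TIR domain without the repeats. Plant TIR domains can act as enzymes that cleave NAD+, and their products signal through EDS1 with its partners PAD4 or SAG101 and then through helper receptors. Transcripts of immune receptor genes often rise after pathogen perception or other stress. SOC1 is a floral activator of the MADS-box family, and the study set out to find genes downstream of it.

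The values are deposited signal intensities, scaled here so that every array had the same median, and are called scaled signal. They have no detection calls, so a dim signal could not be told from background. In RNA of whole seedlings, fewer cells of a type and less RNA per cell cannot be told apart. Over the 13648 probe sets tested, 2 arrays from 1 experiment had r = 0.954 to 0.983, and 2 from different experiments 0.824 to 0.929, so each mutant is read first against the Col array of its own experiment. No probe set was paired with SOC1 in the gene table used, so the genotypes rest on the labels. Leaf and root transcripts were present on all arrays: the Rubisco activase gene RCA read 21958 to 30387 and the root glucosidase gene PYK10 read 13114 to 22022.

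AT1G72920 had the widest difference of the 3 genes between soc1-2 and Col. In Col its scaled signal was 66.7 in experiment 1, 221 in experiment 2 and 93.2 in experiment 3. On the soc1-101D arrays it was 39.6, 295 and 153 in the same order, and on the soc1-2 array it was 556. The soc1-2 array was thus the highest of the 7, while the Col and soc1-101D arrays overlapped and both genotypes were highest in experiment 2. Against Col of experiment 3 the soc1-2 signal was 5.96-fold higher, and against the highest Col array 2.52-fold. On the log2 scale, after a pseudocount of 19.27 was added to each signal, the first of these differences was 2.35, the 4th highest of the 13648 probe sets tested.

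AT1G72940 was also highest on the soc1-2 array, at 789. It read 87.1, 256 and 239 in Col of experiments 1, 2 and 3. In soc1-101D it read 55.2, 268 and 169. Col and soc1-101D again overlapped, and both were lowest in experiment 1. The soc1-2 signal was 3.31-fold that of Col in experiment 3 and 3.08-fold that of the highest Col array, with a log2 difference of 1.65 from Col of experiment 3.

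AT1G72900 differed from the other two in that a soc1-101D array was its highest. Its signal was 90.4, 233 and 144 in Col of experiments 1, 2 and 3, and 162, 528 and 277 in soc1-101D. On the soc1-2 array it was 489, which lies within the range of the soc1-101D arrays and above all Col arrays. Against Col of experiment 3 it was 3.38-fold higher (log2 difference 1.63), against the highest Col array 2.10-fold, and against soc1-101D of experiment 3 only 1.76-fold. The plot of signal by array shows the 3 genes side by side.

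**Figure D1:**
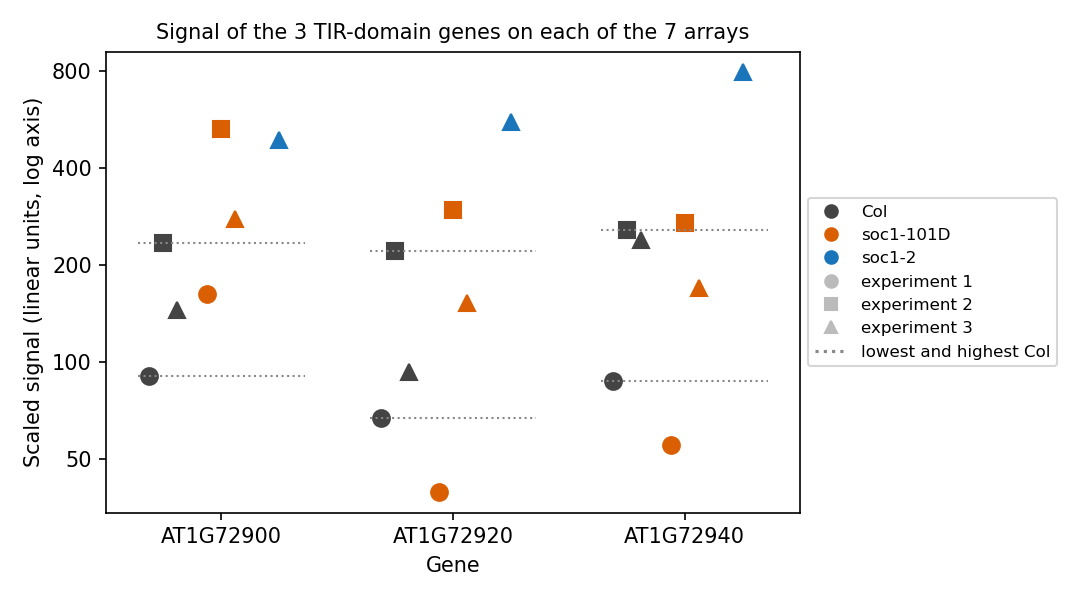
Scaled signal (log axis) of AT1G72900, AT1G72920 and AT1G72940 on each array, with colour for genotype, symbol for experiment and dotted lines at the lowest and highest Col array. The single soc1-2 array (489, 556 and 789) lies above the dotted range for each gene, and for AT1G72900 the soc1-101D array of experiment 2 (528) lies higher still.

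Ordered by mean signal, Col came first for AT1G72900 at 156 ± 71.9 (SD, n = 3), followed by soc1-101D at 323 ± 187 (SD, n = 3) and the soc1-2 array. For AT1G72920 the order was the same, with Col at 127 ± 82.2 and soc1-101D at 162 ± 128. For AT1G72940 soc1-101D came first at 164 ± 107, with Col at 194 ± 93.0. For each gene the ranges of the Col and soc1-101D arrays overlapped. The SDs are large because the experiments differed. The highest Col array exceeded the lowest by 2.58-fold for AT1G72900, 3.30-fold for AT1G72920 and 2.94-fold for AT1G72940.

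The soc1-2 difference in experiment 3 is what singled these genes out, so it is a description and carries no test, and the lone soc1-2 array has no replicate check. All 3 genes lay above the 3 Col arrays, as did 20.2% of tested probe sets. All 3 were at least 2-fold above Col of experiment 3, where 0.674% of tested probe sets were, against 0.139% at least 2-fold below. At least 2-fold above the highest Col array lay 0.0953%, that is 13 probe sets, the 3 genes among them. For AT1G72920 and AT1G72940 the soc1-2 array was the highest of all 7, as for 11.1% of tested probe sets. Against the mean of the 3 Col arrays the log2 differences were 1.62 for AT1G72900, 2.12 for AT1G72920 and 2.04 for AT1G72940. All 3 passed the filter that left out the dimmest 40% of probe sets. By mean log2 signal they stood at percentiles 54.3, 45.1 and 50.9, and without the soc1-2 array at 51.6, 40.7 and 45.8, so AT1G72920 was close to the limit.

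The soc1-101D arrays gave the level of the 3 genes in the line with a gain of SOC1 function. None of the 3 passed the test, where 0.498% of the tested probe sets rose and 0.447% fell. The test used experiments 1 and 2, because the Col array of experiment 3 had served to choose the genes. AT1G72900 was higher in soc1-101D in each experiment, with log2 differences of 0.72, 1.12 and 0.86 in experiments 1, 2 and 3. The fitted difference over experiments 1 and 2 was 0.92 ± 0.22 (limma SE), a 1.89-fold change. It had a 95% interval of 0.42 to 1.42 and a limma adjusted p of 0.124. The 95% intervals given here are for 1 gene at a time. Unlike the adjusted p, they take no account of the number of probe sets tested. With all 3 experiments the fitted difference was 0.90 ± 0.15 (limma SE). No p is given for that value, since it includes the Col array used to choose the genes, and a low signal there favours a positive difference. A positive sign in all 3 experiments was found for 14.5% of tested probe sets. With a pseudocount 5 times as large the difference was 0.70 and passed (limma adjusted p = 0.0312). In that setting 192 probe sets rose and 268 fell, against 68 and 61 in the main fit. AT1G72900 passed in no other setting tested. Its limma adjusted p was 0.142 with quantile normalization and 0.130 with a pseudocount of 0.02 times the median.

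AT1G72920 and AT1G72940 had no such shared sign. For AT1G72920 the log2 difference of soc1-101D from Col was −0.55 in experiment 1, 0.39 in experiment 2 and 0.61 in experiment 3. Its fitted difference over experiments 1 and 2 was −0.08 ± 0.26 (limma adjusted p = 0.967), with a 95% interval of −0.67 to 0.52. AT1G72940 differed by −0.52, 0.06 and −0.45. Its fitted difference was −0.23 ± 0.23 (limma adjusted p = 0.839), with an interval of −0.75 to 0.30. For AT1G72920 the sign of the fitted value turned with the setting, as with all 3 experiments (0.15). Neither interval reaches the size seen on the soc1-2 array, in either direction, and neither shows that the level was unchanged.

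**Figure D2:**
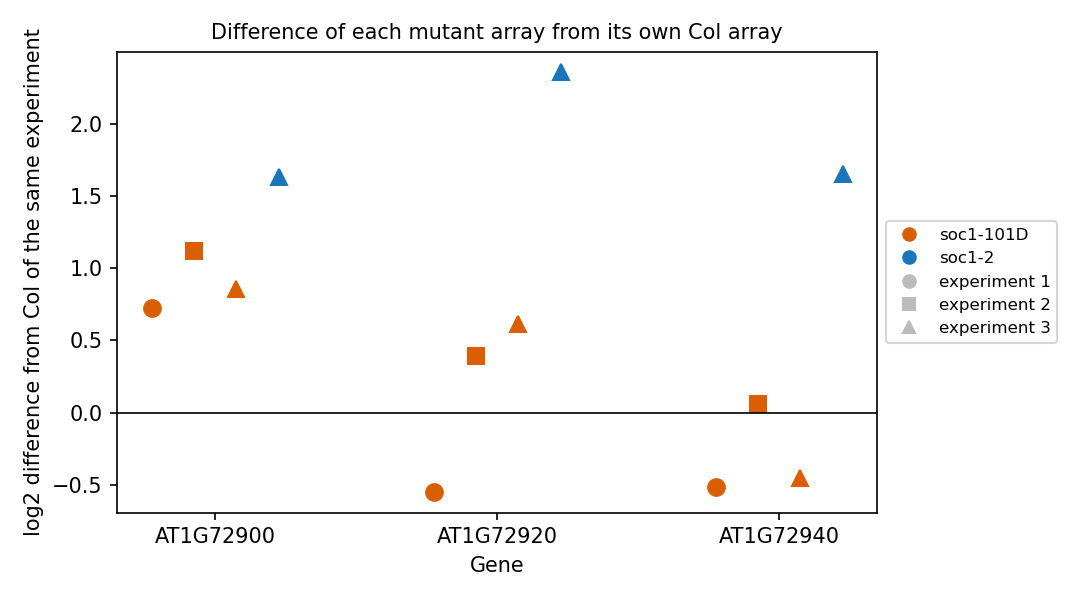
Log2 difference of each mutant array from the Col array of the same experiment, for the 3 genes, with colour for the mutant and symbol for the experiment. The soc1-2 points (1.63, 2.35 and 1.65) stand above the soc1-101D points, which are all positive for AT1G72900 (0.72 to 1.12) and fall on both sides of 0 for AT1G72920 and AT1G72940.

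Within each array, AT1G72900 can be set against its own neighbours as a change in ratio. From Col to soc1-101D the log2 ratio of AT1G72900 to the mean of AT1G72920 and AT1G72940 rose by 1.26, 0.89 and 0.78 in experiments 1, 2 and 3, a mean of 0.98 ± 0.25 (SD, n = 3 pairs). All 3 pairs had the same sign. From Col to soc1-2 in experiment 3 the same ratio changed by −0.37. This contrast was chosen after the values had been seen, so it carries no test.

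The levels of the 3 genes also differed between experiments. In experiment 2 each was higher than in experiment 1 in both Col and soc1-101D. AT1G72920 was 3.86-fold higher in the fit (log2 difference 1.95 ± 0.26, limma adjusted p = 0.000997), with 1.48 in Col and 2.42 in soc1-101D. AT1G72940 was 3.16-fold higher (1.66 ± 0.23, limma adjusted p = 0.00118), with 1.37 in Col and 1.95 in soc1-101D. AT1G72900 was 2.64-fold higher (1.40 ± 0.22, limma adjusted p = 0.00218), with 1.20 in Col and 1.60 in soc1-101D.

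Such a rise was frequent over the array. In the same fit 14.7% of the tested probe sets were higher in experiment 2 and 14.2% lower, so passing it does not set the 3 genes apart. At least 2-fold higher in experiment 2 in both genotypes, as the 3 genes were, lay 4.93%. With no filter on dim probe sets the 3 genes missed the threshold, with limma adjusted p of 0.0981 for AT1G72900, 0.0926 for AT1G72920 and 0.0903 for AT1G72940, as did every other probe set. Without the genotype term AT1G72900 missed it too (limma adjusted p = 0.0663). What differed between the experiments is not given in the labels.

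Markers of root and leaf were read for the same experiments. Over all tested probe sets 14.7% were higher in experiment 2 than in experiment 1. Of 5 root markers tested, 1 was higher, which is near that share: the gene AT4G15390 (log2 difference 1.73 ± 0.21, limma adjusted p = 0.000678). Its r with the mean profile of the 3 TIR-domain genes, over the 6 arrays without soc1-2, was 0.978, and that of the other 4 root markers lay between −0.107 and 0.876. PYK10 differed by 0.59 (limma adjusted p = 0.0711), EXPA18 by 0.57, GH9C1 by 0.49 and EXPA7 by 0.05, and none of these passed. The summed signal of the 5 was 14743 to 17906 in experiment 1, 25965 to 25966 in experiment 2 and 22350 to 23463 in experiment 3. That of 3 leaf markers, none of which passed, was 73175 to 75464, 90198 to 95202 and 56138 to 68621 in the same order. None of these 8 markers was at 0 on any array. PYK10 made up most of the root sum on every array. Of the leaf markers, LHCB4.1 and LHCB4.2 were higher in experiment 2 than in experiment 1 (0.55 and 0.56), and RCA was slightly lower (−0.11). The summed root and leaf signals were thus both higher in experiment 2, but not through every marker. The part of root and leaf content in the difference of the TIR-domain genes was not tested. Between soc1-2 and Col of experiment 3 the summed root signal was 22350 against 23463, and AT4G15390 differed by a log2 of 0.25.

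The rest of the cluster was measured only in part. In the order of the RefSeq gene table for TAIR10.1, AT1G72910 lies between AT1G72900 and AT1G72920, and the gene named TIR (AT1G72930) between AT1G72920 and AT1G72940. Neither was paired with a probe set here. Of the 8 other TIR-domain genes listed for the cluster 6 were measured, and 5 of these were below the filter. AT1G72890, next to AT1G72900 and the 1 that was tested, read 452, 162 and 293 in Col of experiments 1, 2 and 3. In soc1-101D it read 279, 137 and 209, and in soc1-2 353, within the range of Col (log2 difference 0.25 from Col of experiment 3).

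AT1G72890 also ran the other way between experiments. The 3 genes were higher in experiment 2. AT1G72890, like 14.2% of tested probe sets, was lower there than in experiment 1 (log2 difference −1.16, limma adjusted p = 0.00570). Its soc1-101D difference over experiments 1 and 2 was −0.44 (limma adjusted p = 0.563). On the other flank, AT1G72950, next to AT1G72940, was dim on all arrays, with signals from 3.95 to 80.4. Its log2 difference in soc1-2 was 0.29. Like AT1G72900, it was higher in soc1-101D than in Col in each experiment, by 1.24, 1.47 and 0.79. The same held for AT1G72850 (1.20, 0.07 and 0.28), while AT1G72860 and AT1G72890 were lower in each and AT1G72840 and AT1G72870 had mixed signs. A positive sign in all 3 experiments was found for 14.5% of tested probe sets. In soc1-2 the dim AT1G72840, AT1G72850, AT1G72860 and AT1G72870 differed by −0.40, 0.33, −0.46 and 1.14. For AT1G72870 the soc1-2 signal of 80.3 lay within the Col range of 26.0 to 103.

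Genes further out by locus number were measured as well. Of 15 measured genes numbered from AT1G72700 to AT1G73100 outside the TIR group, 10 were tested. None of these 10 was 2-fold changed in soc1-2, and their median log2 difference was −0.06, against −0.02 over all tested probe sets. Since 0.674% of tested probe sets were 2-fold higher and 0.139% lower, a count of 0 is near the background for a list of this size. None passed for soc1-101D, and 1, AT1G72700, was higher in experiment 2 than in experiment 1 (log2 difference 1.00, limma adjusted p = 0.00961). Over all tested probe sets 14.7% were higher. The largest soc1-2 differences among the 15 were 0.62 for AT1G73040, 0.42 for AT1G72960, −0.42 for AT1G73020 and −0.25 for AT1G72810, the first 2 of them below the filter. The plot along the gene order sets the 3 genes beside their flanks.

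**Figure D3:**
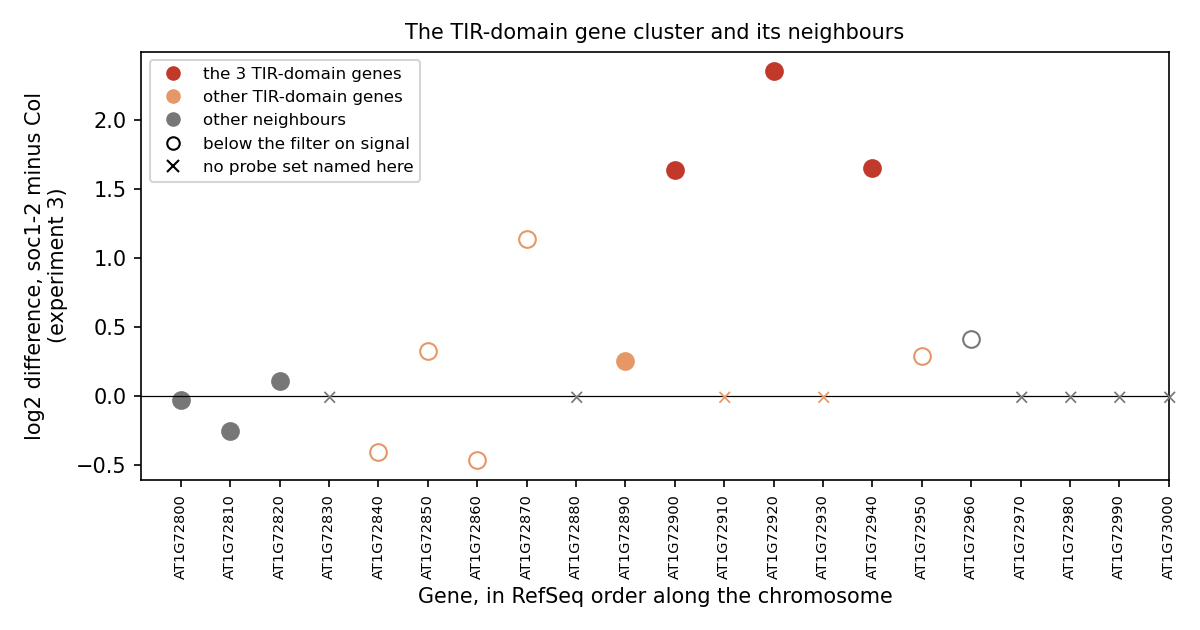
Log2 difference between soc1-2 and Col of experiment 3 for each gene from AT1G72800 to AT1G73000, in RefSeq order, with open circles for probe sets below the filter and crosses for genes with no probe set named here. AT1G72900, AT1G72920 and AT1G72940 lie at 1.63, 2.35 and 1.65, AT1G72870 at 1.14 below the filter, and the other measured genes between −0.46 and 0.42. The 3 genes were chosen for their high soc1-2 signal, so their place above the rest of the cluster follows from that choice.

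TIR-domain genes elsewhere in the genome were then examined, from a list of shorter genes that lack the leucine-rich repeats. Of 26 listed, 18 were measured and 4 tested. None of the 4 was 2-fold changed in soc1-2, which is again near the background, and their median log2 difference was 0.13. AT3G04210 rose in soc1-101D by a log2 of 2.26 over experiments 1 and 2 (limma adjusted p = 0.00528), where 0.498% of tested probe sets rose. AT3G04210 read 149, 111 and 192 in Col of experiments 1, 2 and 3, and 736, 644 and 301 in soc1-101D. It missed the threshold with all 3 experiments (limma adjusted p = 0.0816), where 0.271% of tested probe sets rose and 0.271% fell, and when dim probe sets were kept (0.640). On the soc1-2 array it read 205, near the Col array of the same experiment. None of the other 3 passed for soc1-101D, and AT4G09420 was at 0.64 in soc1-2 and 0.46 in soc1-101D (limma adjusted p = 0.511). AT5G56220, at −0.20 in soc1-2, was higher in experiment 2 than in experiment 1 (log2 difference 0.73, limma adjusted p = 0.0335). So were 14.7% of tested probe sets.

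Of the dim genes in that list AT1G66090 had the widest soc1-2 difference, at a log2 of 2.00, but its signals were low and variable. It read 64.1, 103 and 11.8 in Col, 192, 162 and 45.3 in soc1-101D, and 105 in soc1-2, barely above the highest Col array. AT1G52900 differed by 1.19, with a soc1-2 signal of 32.7 inside the Col range of 3.52 to 72.8. AT1G57630 differed by −0.78 and read 4.78 in soc1-2. The last value lies under the pseudocount, which fixes the size of that difference. AT1G57630 read 11.0, 11.9 and 22.1 in Col of experiments 1, 2 and 3, and 89.4, 106 and 45.9 in soc1-101D. Being below the filter, it was not tested.

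Full-length TIR receptors carry the leucine-rich repeats. Of 28 listed genes 11 were measured and 7 tested. None of the 7 was 2-fold changed in soc1-2, a count near the background, and their median log2 difference was −0.12. None passed for soc1-101D. The dim AT1G56540, AT1G31540 and AT5G18360 differed in soc1-2 by 0.94, 0.89 and 0.64, all with a Col signal in experiment 3 below the pseudocount. Among the tested ones AT3G44630 had the widest difference, at −0.33. In experiment 2 AT5G11250 was higher than in experiment 1 (log2 difference 0.75, limma adjusted p = 0.0301) and AT3G44630 lower (−1.39, limma adjusted p = 0.00434). Over all tested probe sets 14.7% were higher and 14.2% lower.

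Of the 17 genes listed for TIR signalling and its chaperones 4 were measured and 2 tested, so EDS1 itself, PAD4 and the helper receptors ADR1 and NRG1.1 are not analysed here. SAG101, which encodes a partner of EDS1, read 106, 146 and 125 in Col of experiments 1, 2 and 3. It read 27.9, 145 and 168 in soc1-101D and 183 in soc1-2, the highest of the 7 arrays (log2 difference 0.49 from Col of experiment 3). In the fit it was higher in experiment 2 than in experiment 1 (1.10, limma adjusted p = 0.0295), as were 14.7% of tested probe sets. With the variance prior taken from all 7 arrays it did not pass (limma adjusted p = 0.0552). The difference was 0.40 in Col and 1.80 in soc1-101D, where the experiment 1 array was the low one. SGT1A, which encodes a co-chaperone of immune receptors, differed by 0.02 in soc1-2 and was lower in experiment 2 (−1.39, limma adjusted p = 0.00238). In that comparison 14.2% of tested probe sets were lower. The dim AT3G48080 and AT5G66890 differed by 0.36 and −0.27 in soc1-2. None of the 13 genes listed for salicylate and systemic immunity, PR1 among them, was paired with a probe set by the gene table.

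Rapid stress and touch genes, which respond within minutes to wounding, cold or handling, were in part high on the soc1-2 array too. Of 26 listed, 6 were measured and 3 tested. All 3 were at least 2-fold higher in soc1-2 than in Col of experiment 3, as were 0.674% of tested probe sets. The list was drawn up with earlier results of these data known, so this count is a description. STZ, which encodes a zinc finger repressor induced by salt and cold, read 178, 982 and 205 in Col of experiments 1, 2 and 3. It read 320, 964 and 311 in soc1-101D and 1043 in soc1-2. AT4G27280 read 417, 2170 and 467 in Col, 673, 1631 and 656 in soc1-101D, and 2947 in soc1-2. Both were higher in experiment 2 than in experiment 1, STZ by a log2 of 1.94 (limma adjusted p = 0.000810) and AT4G27280 by 1.79 (limma adjusted p = 0.00199). In that fit 14.7% of tested probe sets were higher. ORA47, an AP2/ERF regulator of the wound response, was at 1.76 in soc1-2, and its experiment 2 difference of 0.69 did not pass (limma adjusted p = 0.158). CML38, a calmodulin-like gene below the filter, read 24.5, 106 and 41.6 in Col, 10.7, 99.7 and 44.7 in soc1-101D, and 191 in soc1-2. The other two measured genes were also below the filter. WRKY53 read 93.7 in soc1-2 and 96.1 in Col of experiment 3, and CML37 differed by 0.68 with a soc1-2 signal of 15.5, under the pseudocount.

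The high soc1-2 signal of the TIR-domain genes thus came together with that of STZ, AT4G27280 and ORA47 on 1 array. STZ and AT4G27280 were also higher in experiment 2 than in experiment 1, as the TIR-domain genes were. ORA47 was so in Col only, since in soc1-101D it read 214 in experiment 1 and 197 in experiment 2. Their part in the result was not tested. Like AT1G72920 and AT1G72940, the 3 tested stress genes were highest on the soc1-2 array, as were 11.1% of tested probe sets. They exceeded the highest Col array there by less: 1.06-fold for STZ, 1.33-fold for ORA47 and 1.36-fold for AT4G27280. CML38, below the filter, was also highest there, at 1.81-fold the highest Col array. Its r with the mean profile of the 3 TIR-domain genes was 0.966, and 0.939 without soc1-2. The other measured stress genes had r from 0.0619 to 0.852 over the 7 arrays. None of the 3 tested stress genes passed for soc1-101D.

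**Figure D4:**
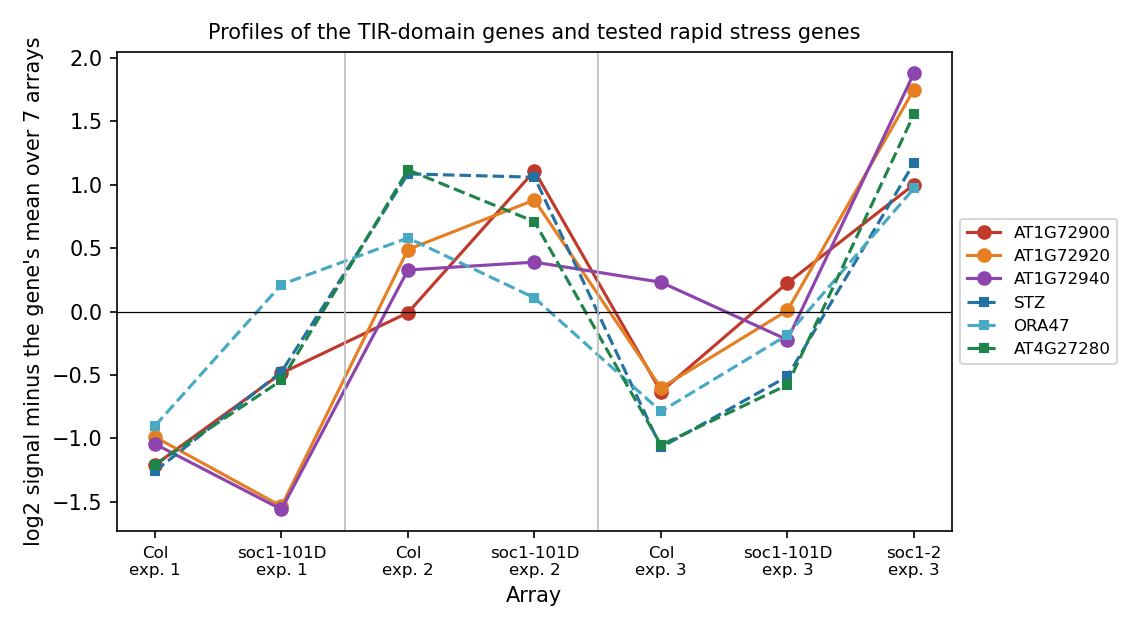
Log2 signal of the 3 TIR-domain genes (solid lines) and the 3 tested rapid stress genes (dashed lines) on each array, minus the gene's mean over the 7 arrays, with grey lines between experiments. All 6 genes are higher on the soc1-2 array than on the Col array of experiment 3, by log2 values from 1.63 to 2.61, and higher in Col of experiment 2 than in Col of experiment 1. In soc1-101D ORA47 was lower in experiment 2 (197) than in experiment 1 (214).

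Among 7273 tested probe sets with 1 gene name, the likeness to the mean profile of the 3 genes was measured by Pearson's r over the 7 arrays, as a description. The points share experiments and, in experiment 3, 1 soc1-2 array that weighs heavily. The closest was OPCL1, which encodes a CoA ligase of jasmonate synthesis, at r = 0.971. It read 317, 448 and 414 in Col, 280, 562 and 451 in soc1-101D, and 596 in soc1-2, so its changes were smaller than those of the TIR-domain genes. AT5G15870 (0.964), AT1G24440 (0.958), AT3G46600 (0.957) and AT5G14730 (0.95) followed, and then AT1G23710 (0.949), AT3G25600 (0.945) and AT4G13580 (0.939). In soc1-2 these 8 differed from Col of experiment 3 by log2 values from 0.38 in AT4G13580 to 1.66 in AT3G46600. An r above 0.95 was reached by 5 of the 7273.

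Without the soc1-2 array the closest genes were different ones. Over the other 6 arrays AT1G59970 (r = 0.996), AT3G61610 (0.992), AT2G39000 (0.991) and AT3G62370 (0.988) came first, and 52 probe sets were above 0.95. On the soc1-2 array these 4 differed from Col by 0.29, −0.40, 0.20 and −0.12. They therefore followed the TIR-domain genes between experiments and did not share the size of their soc1-2 difference. Of the 8 genes above, all kept an r of at least 0.916 over these 6 arrays.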

How the data were processed

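The values deposited by the authors are linear signal intensities, 1 for each probe set on each array. The sources used here do not name the software behind them. Their 2% trimmed means were 495.46 to 496.24, as after scaling of whole arrays. Arrays were brought to a common median of 192.69, and 0.1 times that median (19.27) was added before log2, so differences on that scale understate the change of dim genes. A filter on mean log2 signal over all 7 arrays removed the dimmest 40% of probe sets, leaving 13648 of 22746. Models were fitted with limma 3.58.1 (lmFit and eBayes) in R 4.3.3 to the 4 Col and soc1-101D arrays of experiments 1 and 2, with genotype and experiment as fixed terms. Benjamini-Hochberg adjustment of p-values was made over the 13648, with a threshold of 0.05. The fit had 1 residual degree of freedom and a prior of 7.92. Tested on simulated data, it mostly made more false calls than the threshold allows, so a fit with the prior of 5.62 from all 7 arrays was added. The simulated variances were drawn with that same prior of 5.62. The simulation therefore cannot tell which prior suits the real data better.

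The experiment number pairs the arrays: in the labels, each mutant array has as its baseline the Col array that shares its number, and deviations from the group mean correlated at r = 0.849, 0.739 and 0.821 within experiments 1, 2 and 3. P-values cover only the spread between these arrays, which may be technical. A platform annotation table named 1 gene for 13513 probe sets, and 503 had several and 8730 no name there. Of these, 13484 matched a RefSeq table of TAIR10.1, which gave symbols and gene order. No build is named for the array, so no positions are given, and cross-hybridisation within the family was not tested.

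The genes, the lists and the alternatives were chosen with earlier results of these data known. The text names all members, all measured genes of the cluster, up to 4 of each other list by the size of the soc1-2 difference, genes behind a count of 5 or fewer, and the 8 and 4 closest profiles. Genes named for such a count, and the leaf and root markers shown, were picked after their values were seen.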

Additional observations from a re-analysis of the deposited data

How the results depend on the processing

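The soc1-2 differences of the 3 genes kept their sign under every scaling, pseudocount and baseline tried, and moved beyond the spread of Col in 1 case, AT1G72900 against soc1-101D of experiment 3 (0.78). The sign for AT1G72920 in soc1-101D was not settled: it was 0.021 with a pseudocount 0.5 times the median and 0.15 with all 3 experiments. It was 0.39 without experiment 1 and, from all 3 experiments, 0.032 without experiment 2, and leaving out an experiment gave −0.55 to 0.50 in all. For AT1G72940 leaving out an experiment gave −0.52 to 0.062 and for AT1G72900 0.72 to 1.12. AT1G72900 passed in soc1-101D only with the pseudocount at 0.5 times the median (0.70). The differences between experiments 2 and 1 kept their size with no filter (1.40, 1.95 and 1.66 for AT1G72900, AT1G72920 and AT1G72940) but missed the threshold, as did AT1G72900 with no genotype term (1.40).

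Over all probe sets, 68 rose and 61 fell in soc1-101D. Without the experiment as replicate block, and with no filter, limma called 0 in either direction (1451 at an unadjusted p under 0.05 with the block and filter). The block changed no call of the 3 genes. The counts were 192 and 268 with the larger pseudocount, 139 and 198 with a variance trend, 37 and 37 with all 3 experiments, and 33 and 14 with the prior of the 7-array fit, an alternative chosen after seeing the data. Quantile normalization gave 28 that fell and the pseudocount of 0.02 times the median 37. Leaving out experiment 1 or 2 from all 3 gave 13 to 47 that rose and 13 to 53 that fell. For experiment 2 against experiment 1 the counts were 2008 and 1934, and 1241 and 1286 with no genotype term, and 0 and 0 with no filter. The cause of these shifts was not tested. Precision is limited by the small number of arrays.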
